A study of Homo sapiens with 10 samples.

Results

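The genes described here encode 4 bone morphogenetic protein ligands (BMP2, BMP4, BMP6 and BMP7), 2 secreted BMP antagonists (GREM1 and NOG) and the 4 ID proteins (ID1, ID2, ID3 and ID4), which are 10 of the 20098 protein-coding genes annotated on chromosomes 1 to 22 and X. They were chosen by name as members of the BMP pathway, and each was located by its bounds in GENCODE v44lift37. MDAMB231, a triple-negative breast cancer cell line with mesenchymal features, was profiled by ChIP-seq for H3K4me3, H3K27Ac and H3K4me1 and by FAIRE-seq, with cells grown in 5% serum, no treatment arm and a single cell line. Each histone mark had 2 samples and FAIRE had 2 samples after fixation in 1% formaldehyde, with 1 input DNA sample for ChIP and 1 for FAIRE. The samples of an assay had been combined before peaks were called, so each of the 4 peak lists is a single measurement and the values below carry no replicate error. The lists held 18019 H3K4me3, 37495 H3K27Ac, 26771 H3K4me1 and 46547 FAIRE peaks, and they do not give the sequencing depth. Peaks were taken when they shared at least 1 base with the gene bounds widened by 100 kb, called the window, and a peak within 1 kb of any start site of the gene was counted as a promoter peak. Peaks with no base within 1 kb of any annotated start site were called distal.

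BMPs are secreted dimers that bind type I and type II serine/threonine kinase receptors, which phosphorylate SMAD1, SMAD5 and SMAD9, and these enter the nucleus with SMAD4. The ID genes are among the most direct transcriptional targets of this route, and their proteins bind basic helix-loop-helix factors and keep them from DNA. Antagonists such as gremlin 1 and noggin capture BMP ligands outside the cell. H3K4me3 marks promoters, H3K4me1 marks flanks of distal elements, H3K27Ac marks active promoters and enhancers, and FAIRE recovers DNA that is poor in nucleosomes.

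Sequences are shown from the places where the lists met. They were taken from distal FAIRE peaks that shared a base with both an H3K27Ac and an H3K4me1 peak. The windows of ID1 and ID2 held no such peak, and the share over all protein-coding genes was not counted. BMP7 held such a peak, although the H3K27Ac peak there met a start of another gene and so was not distal itself. The highest such peak of BMP4, and those of the 4 other genes with the greatest FAIRE height, gave 200 bases around the peak centre, printed from the plus strand of GRCh37/hg19. For BMP4 this was chr14:54447015-54447214, intergenic and 21.6 kb upstream of the gene, with a FAIRE height of 128. For BMP6 it was chr6:7758592-7758791 in an intron of BMP6 (height 153), for ID4 chr6:19867436-19867635 between genes (height 120.4), for GREM1 chr15:33066520-33066719 in an intron of FMN1 (height 114), and for ID3 chr1:23903745-23903944 in an intron of a non-coding gene (height 82.0). Capitals mark matches, on either strand, to TGANTCA, the AP-1 motif, or to GGAATG, the TEAD motif.
BMP4 element: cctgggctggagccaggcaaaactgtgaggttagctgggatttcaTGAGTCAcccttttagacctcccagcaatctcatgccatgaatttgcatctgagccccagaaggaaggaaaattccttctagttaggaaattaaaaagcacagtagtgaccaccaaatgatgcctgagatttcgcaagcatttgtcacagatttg
BMP6 element: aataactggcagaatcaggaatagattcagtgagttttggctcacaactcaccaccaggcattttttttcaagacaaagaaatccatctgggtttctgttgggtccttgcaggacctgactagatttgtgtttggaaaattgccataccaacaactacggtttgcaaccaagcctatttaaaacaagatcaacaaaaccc
ID4 element: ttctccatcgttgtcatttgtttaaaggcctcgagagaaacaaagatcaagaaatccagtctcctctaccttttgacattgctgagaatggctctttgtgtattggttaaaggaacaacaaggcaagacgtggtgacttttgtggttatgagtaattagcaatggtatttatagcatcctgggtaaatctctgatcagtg
GREM1 element: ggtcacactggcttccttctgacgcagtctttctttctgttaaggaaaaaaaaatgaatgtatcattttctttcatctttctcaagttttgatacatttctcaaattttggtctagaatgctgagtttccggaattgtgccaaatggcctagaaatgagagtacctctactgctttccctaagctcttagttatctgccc
ID3 element: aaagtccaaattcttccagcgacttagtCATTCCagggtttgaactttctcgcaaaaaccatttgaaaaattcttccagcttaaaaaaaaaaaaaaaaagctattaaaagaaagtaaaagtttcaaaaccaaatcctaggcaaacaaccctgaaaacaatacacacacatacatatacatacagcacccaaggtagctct

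The AP-1 letters stood in the BMP4 element and in none of the other 4, and 29.4% of all 46547 windows of this length at FAIRE peak centres held them. The TEAD letters stood in the ID3 element only, against 15.0% of the FAIRE windows. GGCGCC, the GC-rich part of the SMAD element of ID genes, was in none of the 5 elements and in 2.84% of the FAIRE windows.

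ID1, ID2 and ID3 were the ID genes with a promoter FAIRE peak, and the 250 bases before their 5' starts are given on the strand of each gene. Those of ID1 and ID3 meet the FAIRE peak, while those of ID2 lie 2864 bp from it. They lie at chr20:30192836-30193085 (plus strand, within a non-coding gene), chr2:8818725-8818974 (plus strand, within the antisense gene ID2-AS1) and chr1:23885993-23886242 (minus strand, between genes). None of the 3 held any of the motifs searched, so no letter is in capitals, while 18.0% of the 250-base windows before all protein-coding starts held GGCGCC.
ID1 upstream: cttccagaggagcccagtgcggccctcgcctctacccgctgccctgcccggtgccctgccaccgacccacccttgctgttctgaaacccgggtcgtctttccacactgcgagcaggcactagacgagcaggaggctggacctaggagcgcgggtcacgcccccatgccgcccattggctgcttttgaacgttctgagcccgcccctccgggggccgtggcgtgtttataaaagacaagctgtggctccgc
ID2 upstream: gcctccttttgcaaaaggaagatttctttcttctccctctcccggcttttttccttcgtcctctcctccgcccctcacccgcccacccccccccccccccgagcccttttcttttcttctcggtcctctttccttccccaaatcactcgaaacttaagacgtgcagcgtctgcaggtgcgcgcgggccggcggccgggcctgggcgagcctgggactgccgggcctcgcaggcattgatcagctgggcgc
ID3 upstream: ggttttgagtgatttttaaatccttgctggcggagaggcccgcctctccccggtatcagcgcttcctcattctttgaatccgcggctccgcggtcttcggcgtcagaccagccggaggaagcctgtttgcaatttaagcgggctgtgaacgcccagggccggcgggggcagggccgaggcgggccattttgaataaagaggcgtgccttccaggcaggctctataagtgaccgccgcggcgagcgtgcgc

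The composite SMAD element, GGCGCC followed after 5 bases by GTCT, is a sequence through which SMAD1, SMAD5 and SMAD4 are known to act on ID genes. Only these exact letters were searched, so any other form of the element would be missed. Its absence from the short upstream windows led to a wider search, chosen after those values were seen. The 10 windows held 8 such elements, and 7 of them were in the windows of ID genes. Each is given as 29 bases on the strand that reads from GGCGCC to GTCT, with the element in capitals, in GRCh37/hg19.
ID1, 3.36 kb downstream of the start, between genes, chr20:30196430-30196458, plus strand: gtacggaGGCGCCTGGCTGTCTggggccc
ID2, 104 bp downstream, in an exon of ID2, chr2:8819065-8819093, plus strand: cgcgcctGGCGCCAGAGAGTCTgctccgg
ID3, 2.95 kb upstream, between genes, chr1:23888932-23888960, minus strand: ccaccctGGCGCCAGGCTGTCTggggctg
ID3, 1.01 kb downstream, in an exon of ID3, chr1:23884972-23885000, minus strand: cctccctGGCGCCGGCCAGTCTgcggacg
ID3, 4.58 kb downstream, between genes, chr1:23881395-23881423, minus strand: gttcgctGGCGCCCGGATGTCTgagctct
ID4, 1.79 kb downstream, in an intron of ID4, chr6:19839372-19839400, plus strand: ggtcggtGGCGCCAGTTAGTCTgcagcga
ID4, 32.5 kb upstream, in an intron of LNC-LBCS, chr6:19805070-19805098, plus strand: cgcagccGGCGCCAGGCAGTCTgggcggc
GREM1, 0.94 kb downstream, in an exon of GREM1-AS1, chr15:33011131-33011159, minus strand: gctgcccGGCGCCAGAACGTCTaccattc

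All 4 ID genes had the composite element within 5 kb of the 5' start, as did GREM1, against 1.07% of all protein-coding genes (215 of 20098). The letters were taken from what is known of ID promoters, so the count at ID genes is not an independent result. The share over all genes was not matched for GC content. Within 2 kb ID1 no longer had it. The ligand genes and NOG did not have it there, and MSX2 was the only holder among 48 other genes of the pathway. Of the 8 elements, the 7 at ID genes lay inside H3K27Ac peaks and the GREM1 element lay in no peak. The H3K27Ac peaks around the ID2 element and the ID4 element at 1.79 kb were lost at p of 1e-10 or less. Over the genome, 15.1% of 848 such elements were inside an H3K27Ac peak and 19.0% inside a peak of any list. H3K4me3 peaks enclosed 6 of the 8, all those at ID genes except the element 2.95 kb upstream of ID3, against 14.9% over the genome. The genome shares cover elements at any distance from a start, whereas all 4 ID promoters held both marks. No share was counted for elements near marked starts, so the comparison says nothing about the letters apart from their position. The element upstream of ID3 was inside an H3K4me1 and a FAIRE peak, and the distant ID4 element was also inside a FAIRE peak. A match is a description of the letters, and binding was not measured.

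The question at the promoters was which of the 10 genes carried the marks of an active start. H3K4me3 peaks were found at 8 promoters, all but BMP7 and GREM1, where 67.3% of all protein-coding genes had one. With the peak centre required in the promoter, 5 kept one, and BMP2, NOG and ID1 dropped out. H3K27Ac peaks were found at 7 promoters (BMP2, BMP4, NOG and the 4 ID genes) against 63.5%, and the same 7 had both marks against 61.3%. FAIRE peaks were at 4 promoters (BMP4, ID1, ID2 and ID3) against 39.3%, and H3K4me1 peaks at 2 (BMP4 and ID3) against 20%. The counts in the separate lists were near the shares over all genes. BMP4 and ID3 had a promoter peak in all 4 lists, a state of 13.1% of genes, and BMP7 and GREM1 had none, a state of 29.3%. The state of BMP4 and ID3 ended when histone peaks were limited to p of 1e-10 or less, since neither kept a promoter H3K4me1 peak. BMP4 also lost its FAIRE peak when heights under the list median were dropped, and it kept only H3K27Ac and H3K4me1 with the 5' bound as its sole start. ID2 lost its FAIRE peak under both changes, which left 2 FAIRE promoters (ID1 and ID3).

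The scores of H3K27Ac differed widely between the marked promoters. The MACS score was read as -10 times log10 of the p-value of a peak against input, so 50 is the authors' threshold of 1e-05, and most of the highest H3K4me3 and H3K27Ac scores stop at 3100. The score ranks the evidence for a peak and is not an amount of acetylation. BMP4, which encodes a ligand of embryonic patterning, and NOG, which encodes noggin, both had a promoter H3K27Ac score of 3100. ID3 had 724 and ID1 had 271. ID2 had 83.4, BMP2 had 76.2 and ID4 had 73.7, and no more than 2.04% of acetylated protein-coding promoters had a lower score than any of these. The median over the 7 genes was 271, whereas the median over 12758 acetylated promoters was 1357. With a score of 100 or more required, 4 of the 10 genes (BMP4, NOG, ID1 and ID3) kept a promoter H3K27Ac peak against 61.6% of all genes.

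**Figure D1:**
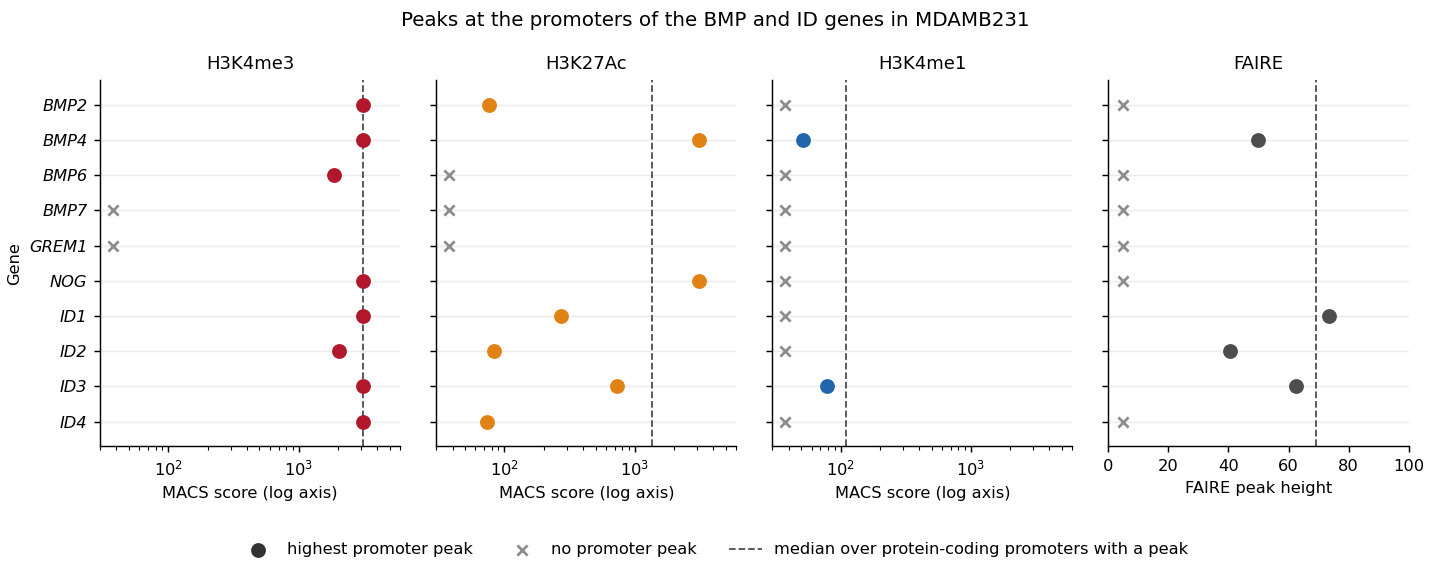
Highest promoter peak of each gene in the 4 lists, as MACS score on a log axis for the histone marks and as peak height for FAIRE. Crosses mark genes with no promoter peak and the dashed line is the median over protein-coding promoters with a peak. H3K4me3 dots sit at 3100 for BMP2, BMP4, NOG, ID1, ID3 and ID4, while H3K27Ac dots run from 73.7 to 3100.

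H3K4me3 scores reached 3100 at 6 of the 8 marked promoters, those of BMP2, BMP4, NOG, ID1, ID3 and ID4, so the score does not order these genes. BMP6 had 1866. ID2 had 1729 for the peak over its acetylated 5' start and 2027 for a neighbouring peak inside the gene that met no H3K27Ac peak. The widest H3K4me3 peaks were at NOG (6816 bp), BMP4 (6326 bp) and ID1 (5954 bp), wider than 98.6%, 97.9% and 97.1% of marked protein-coding promoters, whose median was 2973 bp. BMP6 had the narrowest at 1543 bp and was the only gene of the 10 with H3K4me3 and no H3K27Ac at the promoter, a state of 6.05% of genes. Scores were not compared by a test, since each list is a single measurement.

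Among the ligands, BMP4 (ENSG00000125378.16_10, chr14:54416454-54425479, minus strand) had promoter peaks in the most lists. Its H3K4me3 peak at chr14:54418133-54424458 and its H3K27Ac peak at chr14:54418135-54425187 covered the same 8 of 9 annotated start sites. The exception was the outermost start at the 5' bound, which lay 1021 bp beyond the H3K4me3 peak and 292 bp beyond the H3K27Ac peak. A FAIRE peak of height 49.7 lay over 3 start sites about 2 kb inside the gene, and an H3K4me1 peak with a score of 51.96 covered those and the outermost start. Over the protein-coding genes that had such a promoter peak, the median FAIRE height was 69.2 and the median H3K4me1 score 110.4, so BMP4 was below both.

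The surroundings of BMP4 were populated on both sides. Its window of 209 kb held 2 H3K4me3, 7 H3K27Ac, 9 H3K4me1 and 6 FAIRE peaks, where the medians over all protein-coding genes were 3, 5, 2 and 5. No other protein-coding gene starts in this window. Overlapping peaks merged into 10 elements, of which 8 were distal, and 4 of the distal elements combined H3K27Ac, H3K4me1 and FAIRE.

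The one with the highest H3K27Ac score and FAIRE height was centred 20.9 kb upstream of BMP4, with an H3K27Ac score of 1587, an H3K4me1 score of 353 and a FAIRE height of 128, and it holds the printed AP-1 letters. A further one, 42.2 kb upstream, had an H3K27Ac score of 1270.4, an H3K4me1 score of 342 and a FAIRE height of 53.4. Downstream, the elements at 33.3 kb and 64.0 kb had H3K27Ac scores of 665 and 839, H3K4me1 scores of 337 and 402 and FAIRE heights of 126 and 108. All 4 exceeded the list medians of 591 for H3K27Ac and 114 for H3K4me1, and 3 of them exceeded the FAIRE median of 61.1. An element of the same make-up at 107.6 kb downstream, on the edge of the window, met a start site of the non-coding gene LINC02331 and is not counted as distal. The remaining distal elements had H3K27Ac and H3K4me1 scores of 199 and 79 at 82.3 kb upstream, H3K4me1 alone at 93.9 kb upstream and 15.4 kb downstream, and H3K4me3 alone with a score of 165 at 4.96 kb upstream.

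BMP6 (ENSG00000153162.9_6, chr6:7726332-7881961, plus strand), a ligand known from iron homeostasis and bone, had no H3K27Ac peak at its promoter. Its window held 5 distal H3K27Ac peaks, 4 of them with H3K4me1 and FAIRE, the same counts as for BMP4, but over 356 kb. The counts of both genes were also 5 and 4 within 100 kb on each side of the 5' start. At 50 kb BMP6 had 4 distal H3K27Ac peaks and BMP4 3, with 3 each that met H3K4me1 and FAIRE. At 250 kb BMP6 had 8 and BMP4 14, of which 6 and 13 met both. The distal H3K27Ac peak closest to the BMP6 start was centred 5.00 kb inside the gene, in an intron. It had a score of 826, and the FAIRE height there was 114. Of the 4 in the window with H3K4me1 and FAIRE, the intronic element at 32.4 kb had the highest H3K4me1 score, 426. It also had the highest FAIRE height, 153, with an H3K27Ac score of only 130. The upstream element at 27.7 kb had an H3K27Ac score of 1520.05. The acetylated start in the BMP6 window was that of TXNDC5, which encodes a protein disulphide isomerase, with a score of 2707.

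BMP2 (ENSG00000125845.7_7, chr20:6748333-6760893, plus strand), a close relative of BMP4 and an inducer of bone, had few peaks away from its start. Its 2 distal H3K27Ac peaks had scores of 65.8 and 126 and both lay within a single H3K4me1 peak about 65 kb upstream. A FAIRE peak of height 46.6 overlapped the one with the higher score. Neither H3K27Ac peak was in the window when the bounds were widened by 50 kb, and 1 passed p of 1e-10 or less. With FAIRE heights under the list median dropped, neither met a FAIRE peak. The FAIRE peak nearest to BMP2, of height 48.0, was 1.63 kb from the start and so outside the promoter. No peak of any list lay downstream of its promoter within the window.

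BMP7 (ENSG00000101144.13_9, chr20:55743809-55841697, minus strand), a ligand of kidney and epithelial development, had no peak in its body of 97.9 kb. The peak nearest to its start was a FAIRE peak 79.6 kb upstream, and 93.3% of protein-coding genes had a nearer one. Of the 2 H3K27Ac peaks in its window, the one with a score of 742 met a start of RAE1, which encodes an mRNA export factor. The other, with a score of 664, met the start of MTRNR2L3, a short gene inside the body of RAE1. That peak also met an H3K4me1 peak with a score of 140 and a FAIRE peak of height 67.7. No peak met the start of SPO11, a meiotic recombination gene that also begins in this window.

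**Figure D2:**
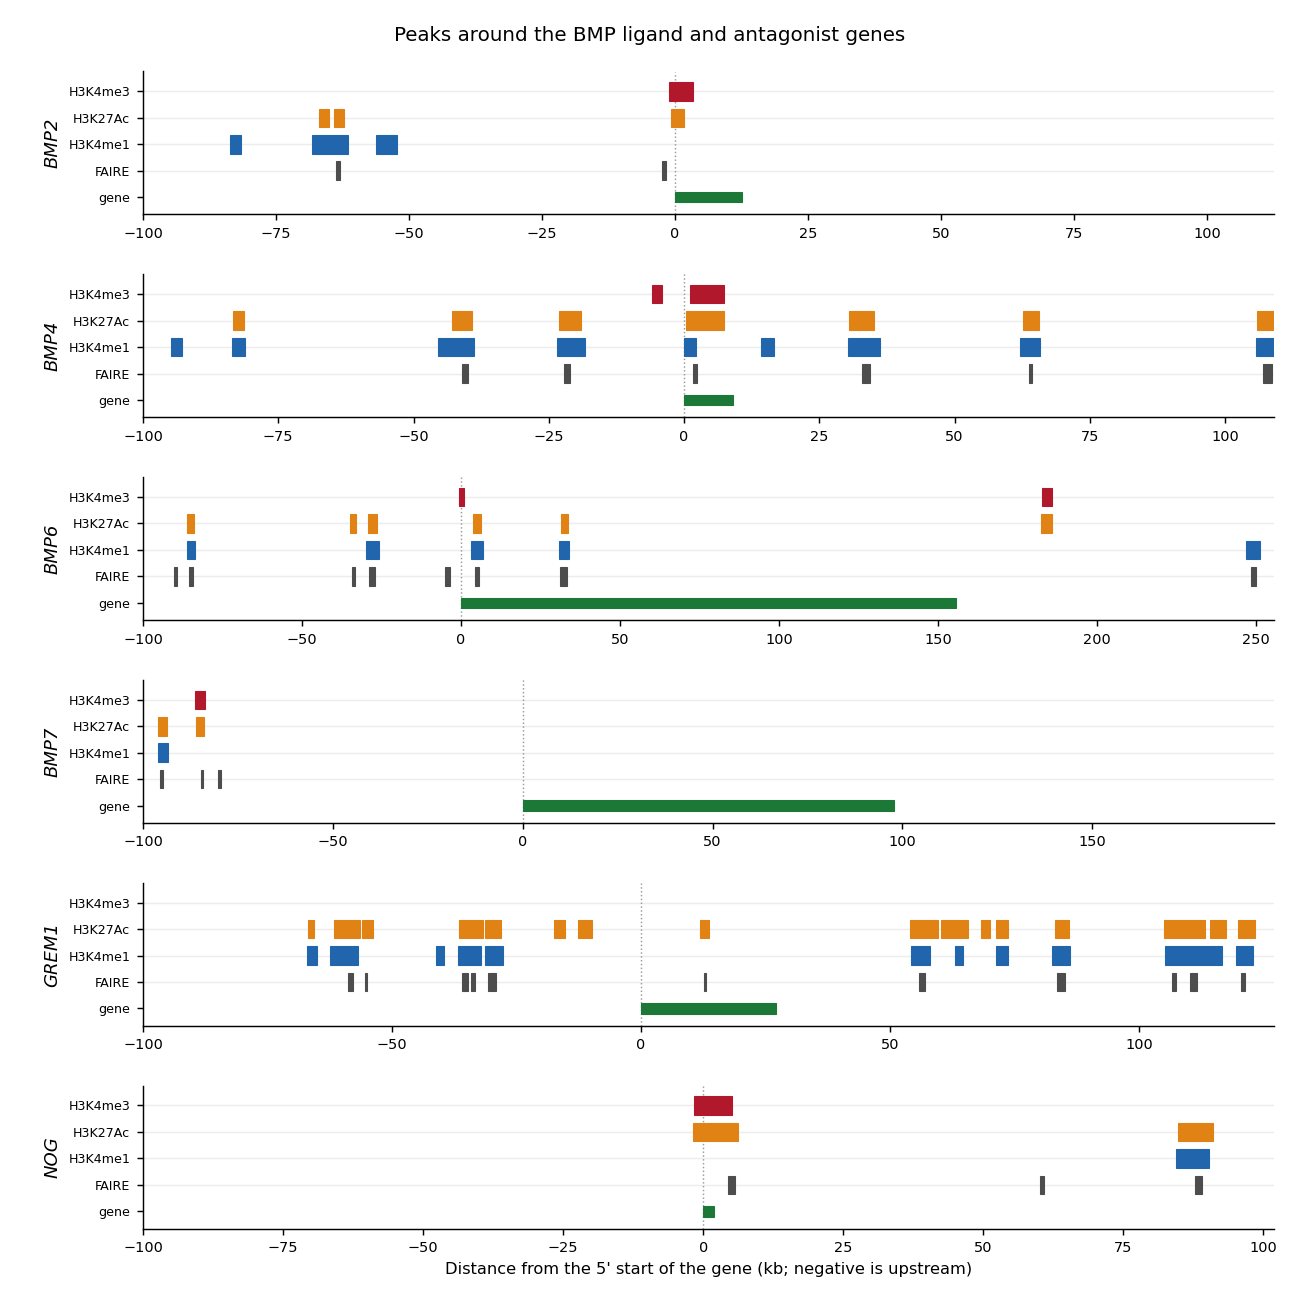
Peaks of the 4 lists around the ligand and antagonist genes, drawn to scale by distance in kb from the 5' start of each gene, with the gene body in green and peaks cut at the edge of the window. BMP4 has stacked peaks on both sides of its promoter, BMP7 has none within 79 kb of its start, and GREM1 has none at its start but many on both sides.

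The antagonists differed at the promoter. NOG (ENSG00000183691.6_7, chr17:54671060-54672972, plus strand) had wide promoter peaks of H3K4me3 (6816 bp) and H3K27Ac (7924 bp), both with scores of 3100, and no promoter FAIRE or H3K4me1 peak. The FAIRE peak nearest to its start, of height 58.1, was 4.52 kb away, beyond the end of the gene and within the H3K27Ac peak. The window of NOG held a single distal H3K27Ac peak, 87.9 kb downstream, with a score of 3100 and joined by H3K4me1 with a score of 753 and FAIRE with a height of 70.2. This count was 0 when the bounds were widened by 50 kb and 8 when they were widened by 250 kb. That H3K4me1 score was the highest among the distal H3K4me1 peaks of the 10 windows, whose median was 199.

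GREM1 (ENSG00000166923.12_13, chr15:33010205-33037307, plus strand) had no promoter peak in any list, and the nearest H3K4me3 peak was 100.8 kb from its start. Its window of 227 kb nevertheless held 16 H3K27Ac, 12 H3K4me1 and 12 FAIRE peaks, and 14 of the H3K27Ac peaks were distal. The distal count was 8 when the bounds were widened by 50 kb and 16 when they were widened by 250 kb. Only 5 of the 14 shared a base with both H3K4me1 and FAIRE. No promoter peak together with an open acetylated distal peak in the window was the state of GREM1 alone among the 10, and of 10% of all protein-coding genes.

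The distal H3K27Ac peaks of GREM1 covered 48.0 kb, or 21.2% of the window, where the median over protein-coding genes was 1.37%. The highest scores, 3100 at 56.8 kb and again at 109.1 kb downstream, were in introns of FMN1, a formin gene whose body reaches into this window. Upstream, a peak with a score of 1918 lay 34.2 kb away at a start of SCG5, a secretory chaperone gene and the only other protein-coding gene that starts in the window, and one with a score of 932 lay 29.7 kb away in its introns. The only H3K27Ac peak inside GREM1 had a score of 107. Which gene such peaks act on was not measured.

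Across the 10 windows, distal H3K27Ac peaks occurred at 8 genes, all but BMP7 and ID2, where 70.6% of protein-coding genes had at least 1. Distal H3K27Ac peaks with both H3K4me1 and FAIRE occurred at 7 genes (BMP2, BMP4, BMP6, GREM1, NOG, ID3 and ID4) against 49.2%. Per 100 kb of window, GREM1 had 6.16 distal H3K27Ac peaks, above 99.99% of protein-coding genes, and BMP4 had 2.39, above 95.2%. ID3 followed with 1.98 and BMP6 with 1.41, while NOG and ID1, at 0.495 and 0.497, were close to the median of 0.489. When only peaks with H3K4me1 and FAIRE were counted, GREM1 had 2.20 per 100 kb and BMP4 1.91, above 98.5% and 97.5% of protein-coding genes. The order of these counts turned with the window, since BMP4 had 3 and GREM1 2 when the bounds were widened by 50 kb, and BMP4 had 13 and GREM1 7 when they were widened by 250 kb.

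**Figure D3:**
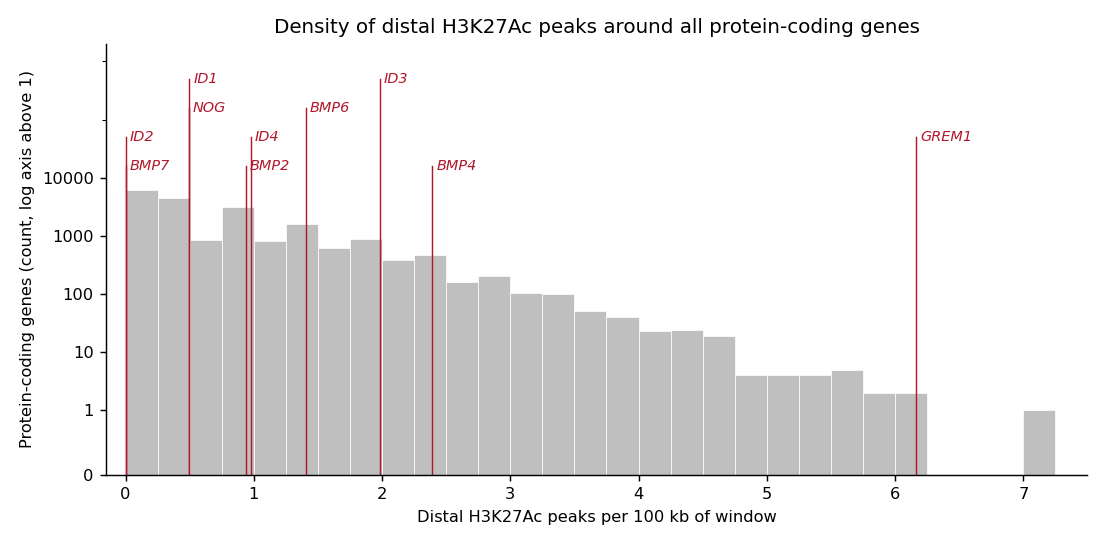
Number of protein-coding genes (log axis above 1) by the density of distal H3K27Ac peaks per 100 kb of window, with the 10 genes marked by red lines. BMP7 and ID2 are at 0, BMP4 is at 2.39 and GREM1 is at 6.16, in the sparse upper tail.

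In all, the windows held 23 H3K4me3, 57 H3K27Ac, 37 H3K4me1 and 66 FAIRE peaks. Of 34 distal H3K27Ac peaks, 25 shared a base with H3K4me1, 23 with FAIRE and 19 with both. Of 51 distal FAIRE peaks, 37 met H3K27Ac and 26 met H3K4me1.

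**Figure D4:**
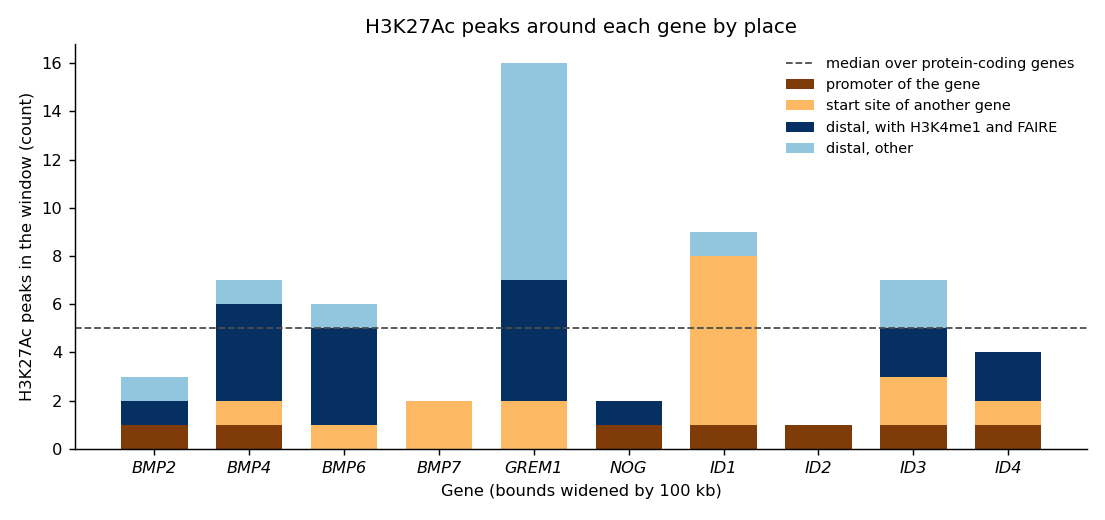
Count of H3K27Ac peaks in the window of each gene by place, with the median over protein-coding genes of 5 as a dashed line. BMP4 and BMP6 have 4 distal peaks each with H3K4me1 and FAIRE, GREM1 has 14 distal peaks, and 7 of the 9 peaks around ID1 lie at starts of other genes.

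The 4 ID genes, which encode inhibitors of basic helix-loop-helix factors, all had H3K4me3 and H3K27Ac at the promoter but differed around it. ID3 (ENSG00000117318.9_8, chr1:23884417-23885992, minus strand) had a promoter H3K27Ac score of 724, an H3K4me1 score of 78.7 and a FAIRE height of 62.3. Its H3K4me1 peak was lost at p of 1e-10 or less, which left ID3 with the same 3 lists as ID1. Its window held 6 H3K4me3 peaks, of which 2 were at starts of ASAP3, an Arf GTPase-activating gene, and E2F2, a cell cycle transcription factor gene. Its distal element 18.0 kb upstream had scores of 785 for H3K27Ac and 292 for H3K4me1. A distal H3K27Ac peak 2.65 kb upstream, with a score of 131, also met H3K4me1 and FAIRE. An H3K4me3 peak centred 4.53 kb downstream with a score of 443, overlapped by an H3K27Ac peak with a score of 348, enclosed the outermost of the 3 composite SMAD elements.

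ID1 (ENSG00000125968.9_10, chr20:30193086-30194318, plus strand) lay in the most gene-dense surroundings. Its promoter H3K27Ac peak was 11737 bp wide, wider than 98.2% of acetylated promoters, with a score of only 271. The promoter held 2 FAIRE peaks, the higher at 73.4, and the window had 17 FAIRE peaks, against a median of 5. Of its 9 H3K27Ac peaks, 5 met starts of HM13, a signal peptide peptidase gene, or of transcripts within or antisense to it, and the start of MCTS2 was among these. Peaks of 24.5 kb and 39.8 kb with scores of 54.1 and 129 extended over BCL2L1, which encodes an inhibitor of apoptosis, and COX4I2, which begins between ID1 and BCL2L1, had no H3K4me3 peak at its start. The single distal H3K27Ac peak of ID1, 11.7 kb upstream, had a score of 96.8 but met a FAIRE peak of height 139. This distal count was 0 at p of 1e-10 or less. It was 3 with start sites of protein-coding genes only, and 4 when the bounds were widened by 250 kb.

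ID2 (ENSG00000115738.10_7, chr2:8818975-8824591, plus strand) had 3 H3K4me3 peaks within 7 kb of its start and little else. Its promoter H3K27Ac score was 83.4 and its promoter FAIRE height was 40.4, and 9.17% of open protein-coding promoters had a lower one. That FAIRE peak lay 3.13 kb inside the gene at another annotated start. No H3K4me1 peak and no distal H3K27Ac peak lay in the window, and the nearest H3K4me1 peak was 124.7 kb from the start.

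ID4 (ENSG00000172201.12_7, chr6:19837601-19842428, plus strand) had a promoter H3K4me3 score of 3100 beside an H3K27Ac score of 73.7 and no promoter FAIRE peak. H3K27Ac scores were higher away from the start. The non-coding LNC-LBCS has a start at the ID4 promoter and another met by an H3K27Ac peak centred 32.6 kb upstream with a score of 439, and the distal element 78.5 kb upstream had 741 with an H3K4me1 score of 285 and a FAIRE height of 102. The element 29.9 kb downstream had an H3K27Ac score of 108 and a FAIRE height of 120.4. The promoter acetylation score of ID4 was the lowest among the 7 acetylated promoters.

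**Figure D5:**
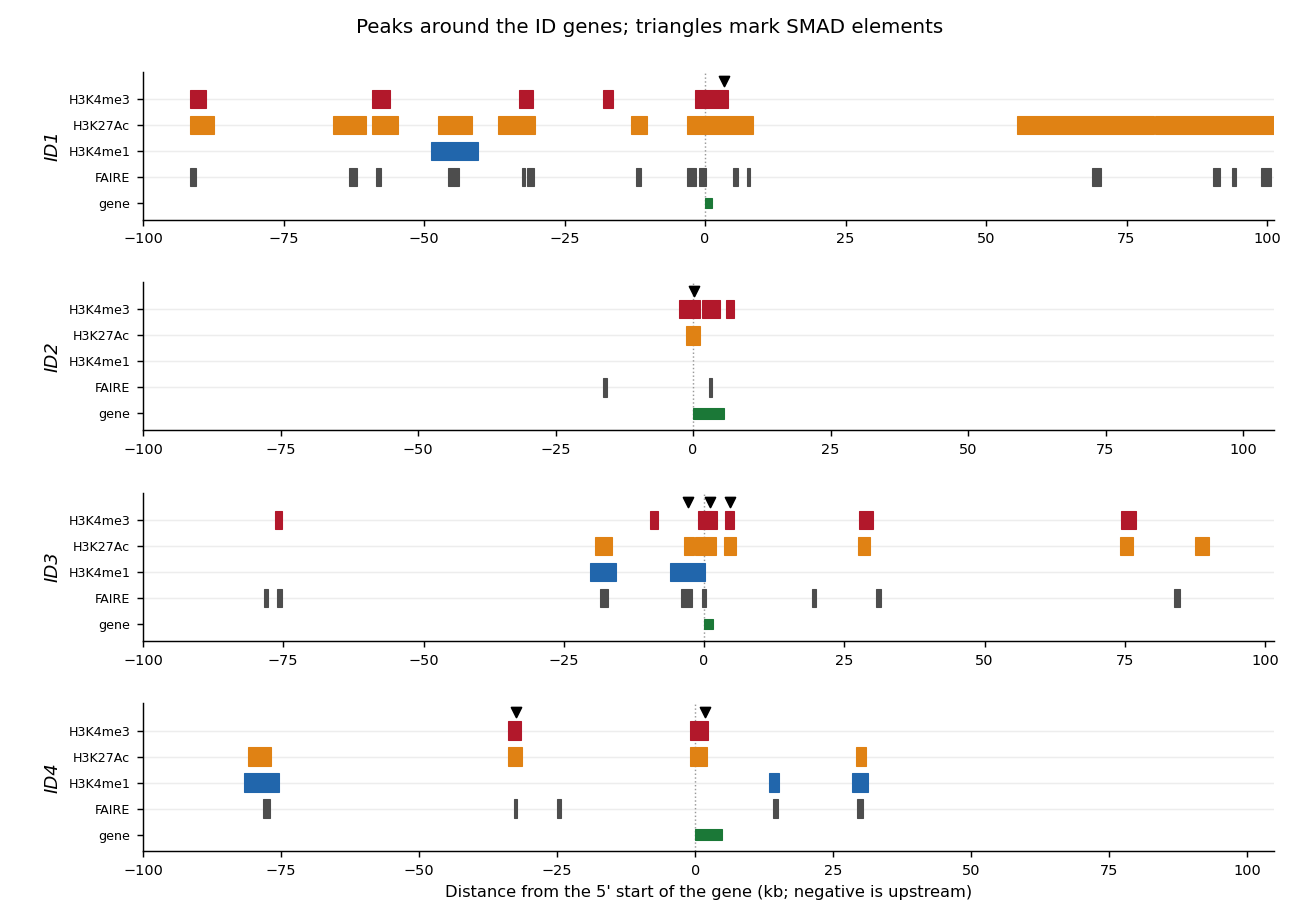
Peaks of the 4 lists around the ID genes, drawn to scale by distance in kb from the 5' start, with the gene body in green, peaks cut at the edge of the window and composite SMAD elements as triangles. All 7 elements fall on H3K27Ac peaks, and the window of ID2 has no H3K4me1 peak.

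The other genes of the pathway gave the setting. Of 48 further pathway genes, 36 had a promoter H3K4me3 peak, 26 had an H3K27Ac peak, 11 a FAIRE peak and 5 an H3K4me1 peak, against 67.3%, 63.5%, 39.3% and 20% of all protein-coding genes. Among 10 other ligand genes, 5 had H3K4me3 and 2 had H3K27Ac, while 6 of 7 receptor genes and 3 of 4 SMAD genes of the BMP branch had both. All 4 genes of inhibitory SMADs and their ligases had both marks, as did 8 of 14 other antagonists and modulators and 3 of 9 other targets. BMPR2, the type II BMP receptor gene, had scores of 3100 for both marks, and SMAD1 had an H3K27Ac score of 760 with peaks in all 4 lists. These groups hold few genes and no test was run between them.

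H3K4me3 without H3K27Ac, the state of BMP6, was found at 10 of the 48 genes, against 6.05% of all protein-coding genes. Among them were the ligand genes BMP3, BMP8A and GDF7, the antagonist gene CHRD, the receptor-regulated SMAD9, and the targets DLX2, DLX3, ATOH8 and UNC5B. The score of H3K4me3 was 3100 at BMP3, SMAD9 and ATOH8 and 776 at GDF7. No pathway gene had H3K27Ac without H3K4me3. Over all protein-coding genes 63.5% had H3K27Ac and 61.3% had both marks, so this state was rare there too.

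The protein-coding genes most like BMP4, with promoter peaks in the 4 lists and the smallest summed difference in window counts among 2626 candidates, were OMA1 and SGO2, which differed by 1 peak, and MCU, PPID and RASA1, which differed by 2. They had from 3 to 6 distal H3K27Ac peaks, where BMP4 had 5. The likeness is one of counts only.

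As a check of the labelled line, all 6 genes known to be active in MDAMB231 (VIM, ZEB1, CD44, CAV1, AXL and FOSL1) had H3K4me3 and H3K27Ac at the promoter, with H3K27Ac scores from 1876 to 3100. Of 8 epithelial or luminal genes known to be low in this line, 2 had both marks (GATA3 and TP63), ESR1, PGR and FOXA1 had H3K4me3 without H3K27Ac, CDH1 had H3K27Ac with a score of 538 and no H3K4me3, and ELF5 and KRT5 had neither. The H3K27Ac scores of GATA3 and TP63, 383 and 315, were above those of ID1, ID2, ID4 and BMP2.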

How the data were processed

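MDAMB231 cells were assayed by ChIP-seq for 3 histone marks and by FAIRE-seq. Reads had been aligned to GRCh37/hg19 with BWA, duplicates removed and the samples of each assay combined. For the histone lists the authors deposited MACS peaks called against input at p of 1e-05, each with a score that was read as -10 times log10 p because its lowest values lie just above 50. For FAIRE the authors deposited FindPeaks peaks with a signal value that was read as peak height; its scale, and whether it was adjusted for depth, is not given in the sources used here. In that list 5 repeated rows were dropped. That each list belongs to the combined samples of its assay was read from the names of the lists and the study's methods. Depth is not given in the lists, so no interval was computed, and no test was run.

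Starts were converted to count from 1. Peaks sharing at least 1 base with a region were counted with Python 3.11.15, numpy 2.4.6 and pandas 2.3.3; the counting was tested on simulated intervals against bedtools 2.31.1. All 10 genes were located in GENCODE v44lift37. Distances run from the 5' bound of the gene to the centre of a peak or element, or to its nearest edge where called nearest. An element is a run of overlapping peaks. Background shares used the same rules for all 20098 protein-coding genes. The chromosomes of the genome sequence held every list position on the 24 chromosomes compared. Sequences were read from the GRCh37 genome and motifs searched on both strands; the composite element contains GGCGCC.

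Named genes were the 10 members with their IDs, protein-coding genes starting in their windows, pathway genes with only one of H3K4me3 and H3K27Ac at the promoter, and the 5 genes most like BMP4. BCL2L1, FMN1, LINC02331, LNC-LBCS, BMPR2, SMAD1, MSX2 and other non-coding neighbours were named after their values were seen. Some items that this rule names are not reported here. The members and lists were chosen with earlier results of these data known. Alternatives varied the promoter size, start sites, window size, peak thresholds and overlap rule.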

Additional observations from a re-analysis of the deposited data

How the results depend on the processing

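No paired analysis was possible because the samples of every assay had been merged into a single list. Peak depth is unknown, and the absence of a peak means only that none passed the authors' threshold. With the peak centre required in the promoter, H3K4me3 promoters fell from 8 to 5, H3K27Ac promoters from 7 to 5 (NOG and ID1 dropped out) and H3K4me1 promoters from 2 to 1. With histone peaks limited to p of 1e-10 or less, H3K27Ac promoters fell from 7 to 4 (BMP2, ID2 and ID4 dropped out), H3K4me1 promoters to 0 and H3K4me1 window peaks, with FAIRE limited as well, from 37 to 24. FAIRE promoters fell from 4 to 2 both with only the 5' bound as a start and when FAIRE heights under the list median were dropped; BMP4 and ID2 were lost in both. With the 5' bound alone BMP4 also lost its H3K4me3 promoter peak (8 to 7). With windows of 50 kb, distal H3K27Ac peaks fell from 34 to 20, those with H3K4me1 and FAIRE from 19 to 11, and window peaks to 33 for H3K27Ac, 19 for H3K4me1 and 38 for FAIRE. With windows of 250 kb these were 66, 42, 110, 83 and 143, with 46 for H3K4me3. The remaining counts over the 10 genes stayed within 1.5 times, which does not mean the same genes. For single genes, 24 of 110 distal counts moved further than that, and the others include counts of 0 that no stricter rule can lower, as for ID2 and BMP7. GREM1 had the most distal H3K27Ac peaks under each window tried, and at 250 kb BMP4 had 14 against 16. With H3K4me1 and FAIRE required, GREM1 led BMP4 by 5 to 4 at 100 kb, but BMP4 led by 3 to 2 at 50 kb and by 13 to 7 at 250 kb, and both had 4 within 100 kb of the 5' start. The composite SMAD element was within 2 kb of the start in 4 of the 10 genes (without ID1) against 0.786% of protein-coding genes, and within 10 kb in 5 against 1.58%, both distances chosen after seeing the data. Its letters are known from ID promoters, so these counts are not independent of the ID genes. The cause of each shift other than the change in window, threshold or rule itself was not tested.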
